A study of Homo sapiens with 6 samples.

Results

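The mitochondrial ribosome is built from proteins encoded in the nucleus, and the genes for these proteins are the subject here. They were taken as the protein-coding genes whose GENCODE symbol starts with MRPL or MRPS followed by a digit, which gave 78 of the 58302 genes in the count files, 49 named MRPL and 29 named MRPS. The RNA-seq libraries came from cells labelled MDA-MB231, a human breast cancer line, expressing a control shRNA (3 libraries) or Smyca shRNA #1 (3 libraries). Smyca is a long noncoding RNA, counted here under its RefSeq gene MIR23AHG, and the study compared both groups to find the transcripts that Smyca regulates. Both groups carried an shRNA, no other treatment or allele is labelled, and the design has 1 cell line and 1 knockdown shRNA. The study describes its repeats as biological, while the labels do not say whether the libraries of a group came from separate cultures, so the p-values measure the spread between these libraries only.

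Mitochondrial ribosomes translate the mRNAs of the mitochondrial genome, whose products are subunits of the respiratory chain and of ATP synthase. Their rRNAs come from mitochondrial DNA, but every protein of both subunits is made in the cytosol and imported. Some of these proteins have counterparts in bacterial ribosomes, and others were gained in the mitochondrial lineage. Of the 78 members, 51 belong to the large subunit, among them MRPS18A and MRPS30 in spite of their names, and 26 to the small subunit. MRPS36 has the name of a ribosomal protein but is known as a component of the α-ketoglutarate dehydrogenase complex. A bacterial homolog is known for 46 members, the other 31 ribosomal members are counted as mitochondria-specific, and the genes lie on 21 chromosomes.

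Smyca was at 24.99, 19.5 and 22.0 normalized CPM (counts per 1000000 of the library size after TMM scaling) in control libraries 1, 2 and 3 and at 10.5, 6.97 and 5.61 in the knockdown libraries. The groups did not overlap, and the log2 fold change, control over knockdown, was 1.53 (standard error 0.26, with adjusted p = 0.111 by edgeR's quasi-likelihood test). The two-sided exact permutation test gave p = 0.1, the smallest value that 3 against 3 libraries allow. Total counts ran from 14999307 to 16501085. In control 2 the deposited FPKM column did not follow the counts, and with the reads behind it the members' median log2 fold change was -0.157 and 0 members were called by edgeR, in place of -0.175 and 0. The markers were mixed for a line known as mesenchymal: 8 of 8 epithelial, 5 of 6 mesenchymal and 6 of 12 gut and liver markers passed the filter on low counts. The epithelial markers were at a summed 7227 to 8565 normalized CPM in control cells and 7730 to 10540 in the knockdown. KRT8 alone made up 4249 to 4775 and 5083 to 7408 of these sums. The means of KRT8 and KRT18 were higher in the knockdown, while those of CDH1, CLDN3, CLDN4, CLDN7, EPCAM and KRT19 were higher in the control. For EPCAM and CLDN3 the difference was small (272.4 against 266.3 and 15.1 against 14.92). The 6 mesenchymal markers summed to 243.7 to 507.5 in the control and 145.4 to 236.0 in the knockdown, and the 12 gut and liver markers to 328.8 to 573.2 and 680.5 to 805.5. The luminal marker PGR and the gut and liver markers CDX1 and AFP were at 0 in every library. The mesenchymal and the gut and liver sums did not overlap between the groups, and their part in the mitoribosomal results was not tested. In bulk RNA, fewer cells of a type and less RNA per cell cannot be told apart.

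Members differed far more from each other than between the groups. Scaled for gene length, the median member was at 52.1 RPKM (normalized CPM per kilobase of gene length), 47 of 78 lay within 2-fold of that, and the highest of the 77 tested was 138 times the lowest. At the top stood MRPL37 at 218, MRPL51 at 209, MRPS34 at 167, MRPL18 at 163 and MRPL3 at 151 RPKM, with members of both subunits among them. At the bottom were MRPS24 at 0.306, MRPL46 at 1.58, MRPL53 at 2.63, MRPL38 at 3.42 and MRPS17 at 5.06. These low levels are uncertain, because in its usual settings HTSeq counts a read that falls on 2 genes for neither, and the settings used are not given in the sources used here. GENCODE places 23.2% of the exonic bases of MRPS24 also in URGCP-MRPS24, a readthrough gene on the same strand, and 72.8% of those of MRPL53 in CCDC142. For MRPL12 the shared part was 69.5%. Of the 7 members with more than 20% of their exonic bases shared on the same strand, 6 were among the 8 lowest members, a limit set after the values were seen. The part of shared exons in the low levels was not tested.

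**Figure D1:**
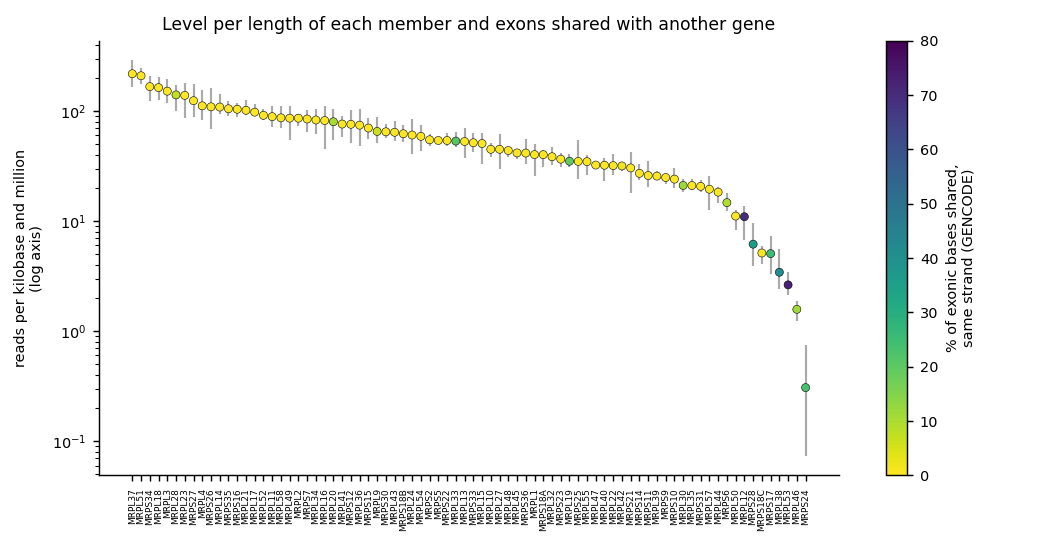
Level per length of the 78 members in RPKM on a log axis, ordered from the highest to the lowest. Points are means of the 6 libraries, vertical lines run from the lowest to the highest library, and the color gives the percentage of exonic bases shared with another gene on the same strand. The darker points gather at the low end, where MRPL53 (72.8%) and MRPL12 (69.5%) lie.

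MRPS24, a small-subunit protein with a bacterial homolog, had 6, 3 and 10 counts in the control libraries and 1, 3 and 2 in the knockdown libraries. It was the 1 member that did not pass the filter on low counts, and its groups overlapped, so 77 members were tested. Replicates of the members were closer than those of the average gene: the SD was a median 11.3% of the mean in the control and 12.2% in the knockdown, against 18.8% and 16.3% over all genes tested. The genes were not matched for expression level, so this difference in spread cannot be read as particular to the members. The median standard error of a member's log2 fold change was 0.18.

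Between the groups, most mitoribosomal genes had slightly higher levels in the Smyca knockdown than in the control, and no single gene passed the test. A higher level in the knockdown was measured for 63 of 77 members (81.8%), against 46.6% of all 15075 genes tested. The median log2 fold change, control over knockdown, was -0.175 for the members and 0.04 for all genes, and the members ran from -0.62 (MRPS27) to 0.71 (MRPL38). By the study's criteria, an adjusted p under 0.05 and a control/knockdown ratio from 1.5 upward or from 0.66 downward, edgeR's quasi-likelihood test, adjusted after Benjamini and Hochberg, called 0 of 77 members, against 4 of 15075 genes, or 0.0265%. The study used DESeq at these cutoffs and reported many more genes, so the 4 genes hold for edgeR's test only. At an unadjusted p under 0.05, 13 members were lower in the control (background 8.74% of all genes) and 0 were higher (background 10.4%). DESeq2 called 1 member, MRPS27, lower in the control, against 5.89% in either direction of the 14192 genes for which it gave an adjusted p. The unadjusted count moved with single libraries, as did that of all genes: the 13 became 4 without control 1 (background 5.02%), 5 without control 2 (5.76%), 27 without control 3 (13.9%), 14 without knockdown 1 (7.32%), 4 without knockdown 2 (4.75%) and 14 without knockdown 3 (8.39%). The fold change of 33 members lay within 1 standard error of 0.

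The groups did not overlap for 22 members. In 20 of them every knockdown library was above every control library (background 12.5%), 14 from the large subunit and 6 from the small, and in MRPL2 and MRPS10 every control library was above (background 12.4%). With the FPKM reads of control 2 these counts were 18 (background 13.7%) and 3 (background 14.2%). A ratio of at most 0.66 was reached by MRPS27 and MRPS28 (background 5.54%) and a ratio of at least 1.5 by MRPL38 (background 15.6%). All other tested members stayed within the study's limits of ratio.

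**Figure D2:**
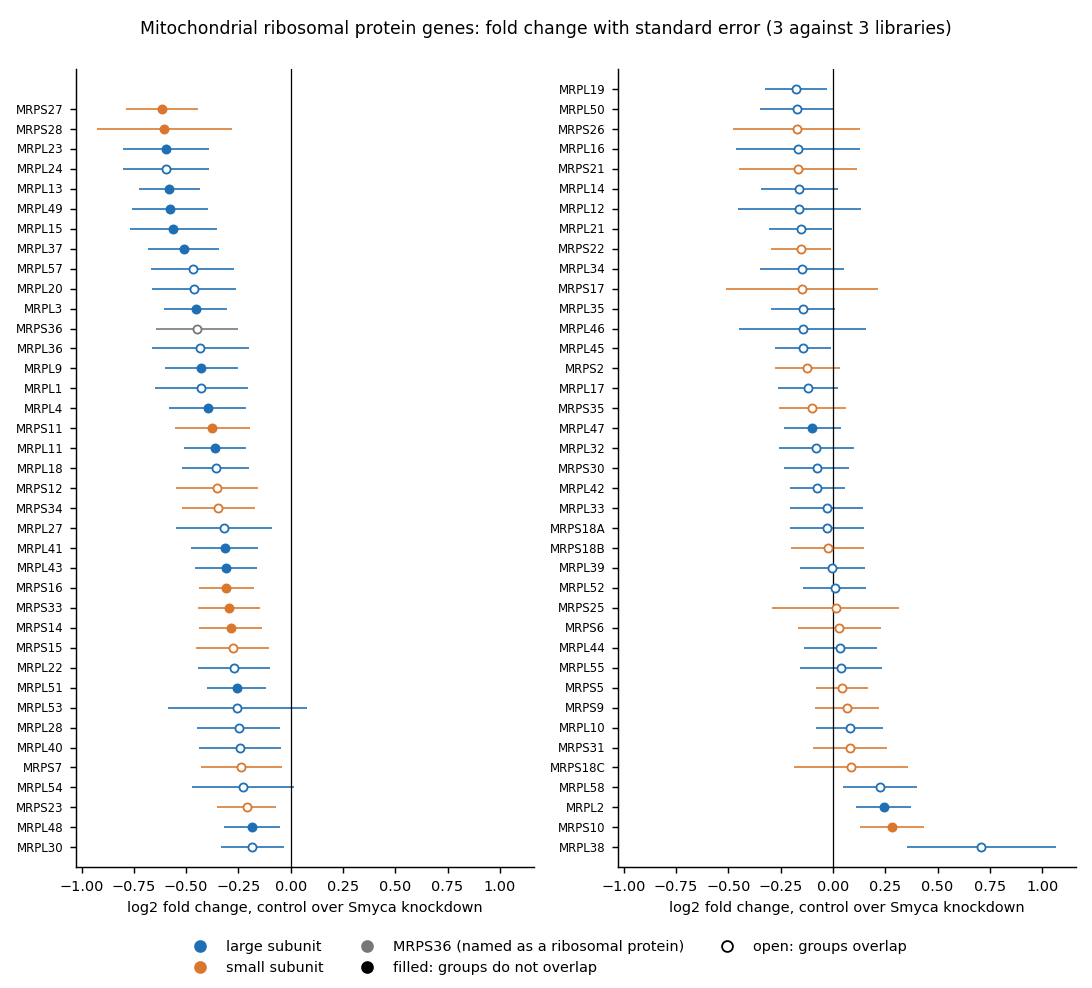
Log2 fold change, control over Smyca knockdown, of the 77 tested members with the standard error of the edgeR fit (3 against 3 libraries). Filled points mark members whose groups did not overlap, and 63 of 77 points lie left of 0, with MRPS27 farthest to the left and MRPL38 farthest to the right.

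Of the 13 members with an unadjusted p under 0.05, 11 were proteins of the large subunit and 2, MRPS27 and MRPS16, of the small subunit. MRPL13, a large-subunit protein with a bacterial homolog (ENSG00000172172), was at 38.8, 45.2 and 46.6 normalized CPM in control cells and at 62.0, 71.3 and 61.7 in the knockdown. All knockdown libraries were higher than all control libraries, and the log2 fold change was -0.58 (standard error 0.15, unadjusted p = 0.0035, adjusted p = 0.124 by edgeR). MRPS27, a pentatricopeptide repeat protein of the small subunit (ENSG00000113048, hg38 chr5:72214953-72321717, minus strand), was at 118, 115 and 101 normalized CPM in control cells and at 201, 174 and 137 in the knockdown. It had the largest difference of any member below 0, again without overlap, at a log2 value of -0.62 (standard error 0.17, adjusted p = 0.133 by edgeR). MRPL49, a mitochondria-specific protein of the large subunit (ENSG00000149792, chr11:65122183-65127371, plus strand), was at 69.4, 89.8 and 105 in the control and at 118, 141 and 136 in the knockdown. Its groups were apart as well, at -0.58 (standard error 0.18, adjusted p = 0.153 by edgeR).

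MRPL3, which in bacteria reaches toward the peptidyl transferase center, was at 107, 119 and 121 normalized CPM in control cells and 136, 164 and 175 in the knockdown. MRPL37, the member with the highest level per length, was at 203, 206 and 178 in the control and 222, 302 and 313 in the knockdown. Neither gene's groups overlapped, and both had an adjusted p of 0.169 by edgeR. The pair MRPL23 and MRPL24 sit beside the exit of the nascent chain tunnel. MRPL23 was at 57.1, 65.8 and 97.0 in the control and 107, 120 and 106 in the knockdown, and MRPL24 at 28.8, 32.6 and 41.6 against 55.2, 60.3 and 40.2. In both, control 3 was the highest control library, and in MRPL24 it was above knockdown 3. MRPL15 had the same shape, at 28.9, 29.9 and 47.6 in the control and 49.1, 53.3 and 54.6 in the knockdown. The remaining members of the 12 with the smallest p below 0 were MRPL9 (log2 fold change -0.43), MRPL11 (-0.36), MRPS16 (-0.31) and MRPL57 (-0.47), each with an adjusted p between 0.232 and 0.246 by edgeR.

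Higher levels in the control were fewer and less certain. MRPL38, at the central protuberance of the large subunit, was at 3.33, 1.97 and 4.16 normalized CPM in control cells and 1.97, 2.03 and 1.78 in the knockdown. Control 2 lay within the knockdown range, 41.1% of the exonic bases are shared with another gene on the same strand, and the log2 fold change of 0.71 had a standard error of 0.36 (adjusted p = 0.316 by edgeR). MRPL2, a core protein near the peptidyl transferase center, was at 79.0, 77.5 and 77.5 in the control and 65.8, 71.0 and 60.9 in the knockdown. MRPS10, a small-subunit protein with a bacterial homolog, was at 64.2, 53.3 and 49.4 in the control and 48.8, 42.5 and 46.2 in the knockdown. Their groups were apart by small margins, with log2 fold changes of 0.24 and 0.28 and adjusted p-values of 0.350 and 0.352 by edgeR. MRPL58, a peptidyl-tRNA hydrolase that became a ribosomal protein, overlapped between the groups at 0.23 on the log2 scale (standard error 0.18). The other 8 of the 12 members with the smallest p above 0 (MRPL10, MRPS31, MRPS9, MRPS5, MRPS18C, MRPL44, MRPL55 and MRPS6) had log2 fold changes between 0.03 and 0.09, each within its standard error.

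**Figure D3:**
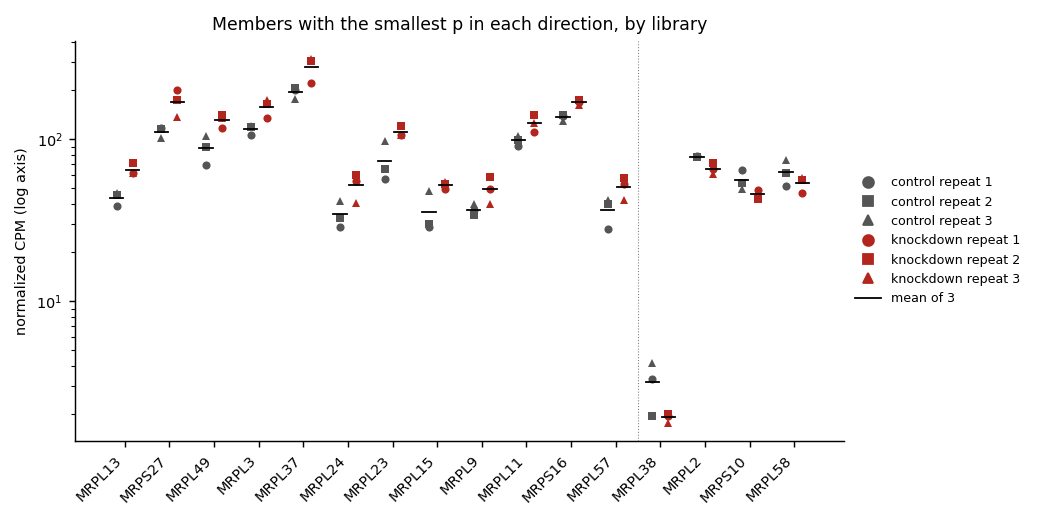
Normalized CPM on a log axis for the 12 members with the smallest p below 0 and, right of the dotted line, the 4 with the smallest p above 0. Each symbol is 1 library (gray control, red knockdown) and the black line is the mean of 3. MRPL13 lies between 38.8 and 46.6 in the control and between 61.7 and 71.3 in the knockdown, while control 3 of MRPL24 lies above knockdown 3.

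The libraries of a group differed among themselves by as much as the groups. Centered on each gene's mean over the 6 libraries, as log2(normalized CPM + 1), the median member was at -0.22, -0.12 and 0.02 in controls 1, 2 and 3 and at 0.03, 0.235 and 0.04 in knockdowns 1, 2 and 3. Over all genes these medians stayed between -0.02 and 0.01. Control 1 held the lowest value of 41 of 77 members and knockdown 2 the highest of 41. The 78 members together took 4129, 4470 and 4908 normalized CPM in the control (4502 ± 390, SD, n = 3) and 5029, 5842 and 5209 in the knockdown (5360 ± 427). The groups of sums did not overlap, control 3 and knockdown 1 were the nearest, and the knockdown mean was 1.19 times the control mean. With FPKM-derived reads for control 2, an alternative chosen after the values were seen, control 2 was at 4989, the ratio was 1.15 and the sums still did not overlap. As shares of all counts, the members took 0.406%, 0.467% and 0.511% in the control and 0.504%, 0.563% and 0.5% in the knockdown, so that without TMM scaling the share of control 3 lay within the knockdown range. From its FPKM reads the share of control 2 was 0.514%, also within that range.

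**Figure D4:**
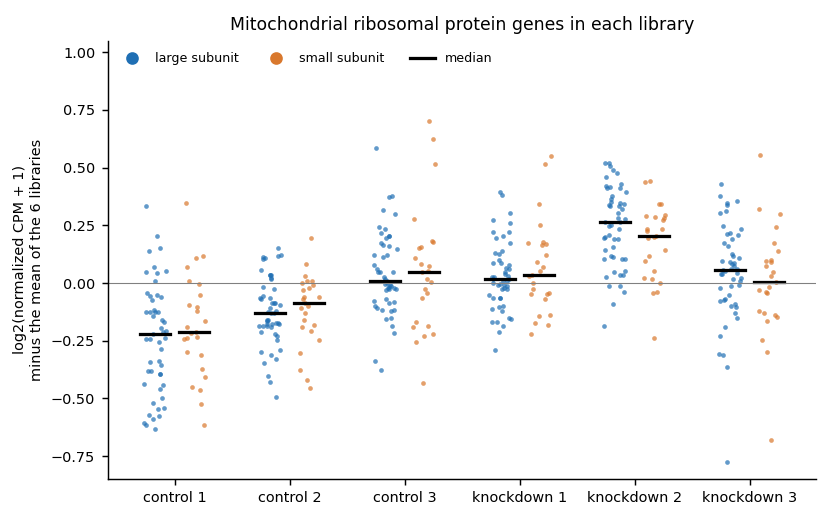
Log2(normalized CPM + 1) of each tested ribosomal member in each library, minus its mean over the 6 libraries, with large-subunit genes in blue, small-subunit genes in orange (MRPS36 is not drawn) and medians as black lines. Control 1 lies lowest and knockdown 2 highest for both subunits, and control 3 lies with knockdowns 1 and 3.

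Leaving out control 3 changed the outcome. In the remaining 2 control and 3 knockdown libraries, edgeR called 8 members by the study's criteria, all lower in the control: MRPL1, MRPL13, MRPL15, MRPL20, MRPL23, MRPL24, MRPL49 and MRPS26 (background 4.04% lower and 6.5% higher). The median of the members was then -0.31, against 0.01 over all genes, and 66 of 77 were lower in the control. The adjusted p of MRPL15 was 0.0135 without control 3, and over all 13 alternatives it ran from 0.0135 to 0.495. Leaving out any other library called 0 members. Nothing in the labels sets control 3 apart, but its markers differed from those of the other controls. Its gut and liver markers summed to 328.8 normalized CPM, against 548.8 and 573.2 in controls 1 and 2, its mesenchymal markers to 243.7, against 507.5 and 331.9, its epithelial markers to 7227, against 8565 and 8079, and its luminal markers to 50.4, against 74.7 and 69.1. Each of these sums was the lowest of the controls, but single markers went both ways. CDH1, KRT8 and KRT19 were lowest in control 3 among the controls, while EPCAM, CLDN3, CLDN7 and KRT18 were highest there. EPCAM was at 336.1 in control 3, against 236.1 and 244.9, and CDH1 at 71.46, against 300.1 and 192.0. Of the luminal markers, ERBB2 was lowest in control 3 and GATA3 highest. The part of the markers in the calls was not tested.

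Both subunits and both origins had medians close to each other. The large subunit had a median log2 fold change of -0.18, with 44 of 51 members lower in the control, and the small subunit one of -0.17, with 18 of 25. Members with a bacterial homolog were at -0.18 (37 of 45 lower) and mitochondria-specific members at -0.17 (25 of 31 lower). At the stalk, where translation factors bind, 4 of 5 members were lower in the control at a median of -0.23: MRPL11 at the stalk base was at -0.36, MRPL53 at -0.26, MRPL54 at -0.23, MRPL12 at -0.16 and MRPL10 at 0.08. All of these but MRPL11 lay within 1 standard error of 0 (0.33 for MRPL53, 0.24 for MRPL54, 0.29 for MRPL12 and 0.16 for MRPL10). The exit side of the tunnel had 7 of 8 lower at -0.13, and the central protuberance 5 of 9 at -0.14. With all libraries no member of these regions was called, and the groups of MRPL11 were the only ones at the stalk that did not overlap. Without control 3, MRPL23 and MRPL24 at the tunnel exit were called, 2 of 8 (background 4.04% lower in the control). Leaving out a library moved the stalk median between -0.403 (without control 3) and -0.104 (without control 1), and that of the central protuberance between -0.248 and -0.0218 (the same libraries), while the exit side stayed between -0.161 and -0.111. The large subunit ran from -0.324 to -0.128 and the small subunit from -0.262 to -0.102, with the lowest median without control 3 in both.

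The MRPS18 paralogs, 3 genes for related proteins at different places in the ribosome, lay near 0. MRPS18A of the large subunit was at -0.03, MRPS18B of the small subunit at -0.03 and MRPS18C, which takes the place of the bacterial protein, at 0.09, and the groups of each overlapped. MRPS30, the other large-subunit protein with a small-subunit name, was at -0.08. MRPS36, the dehydrogenase component, was at 28.4, 31.0 and 30.5 normalized CPM in control cells and 45.4, 47.6 and 29.6 in the knockdown. Knockdown 3 alone was at the control level, and the log2 fold change was -0.45 (standard error 0.20, adjusted p = 0.263 by edgeR).

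The 4 members below stood apart in 1 library, a choice made after their values were seen. MRPL16 was at 58.5, 65.5 and 63.4 normalized CPM in control cells and 83.4, 90.2 and 36.9 in the knockdown, and MRPS21 at 33.9, 38.9 and 42.6 against 56.9, 48.4 and 24.3. In both, knockdown 3 was the lowest of the 6 libraries while the other knockdowns were the highest. MRPS26 was at 76.6, 87.9 and 182 in the control and 121, 144 and 127 in the knockdown, and MRPS25 at 33.6, 35.4 and 75.9 against 50.4, 51.2 and 42.0. Here control 3 was the highest library, and without it MRPS26 was among the 8 members called.

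Proteins of the mitochondrial ribosome with other names lay within the same range. Of 5 genes, 4 were lower in the control and 0 were called by edgeR. The small-subunit proteins DAP3 (log2 fold change -0.09), CHCHD1 (-0.16) and AURKAIP1 (-0.34) and the large-subunit protein GADD45GIP1 (-0.14) overlapped between the groups. PTCD3, a pentatricopeptide repeat protein of the small subunit as MRPS27 is, was at 95.1 ± 6.55 normalized CPM in control cells and at 80.8 ± 1.40 in knockdown cells (SD over 3 libraries), with no overlap and a log2 difference of 0.23 (adjusted p = 0.363 by edgeR). The rRNAs of the mitochondrial ribosome, MT-RNR1 and MT-RNR2, were at -0.23 and 0.07, both overlapping between the groups, in libraries from which rRNA had been depleted.

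Genes that work with the mitochondrial ribosome are given list by list. Assembly factors had a median of -0.21, with 21 of 26 lower in the control, from RCC1L, an RCC1-like protein of ribosome assembly, at -0.81 (adjusted p = 0.119 by edgeR) to METTL17 at 0.33. Mitochondrial translation factors were at -0.09, with 8 of 15 lower, between MTRFR (-0.36) and MTRF1 (0.33) as those with the smallest p. Genes of mitochondrial DNA transcription and replication were at -0.19 with 6 of 9 lower, led by the packaging and transcription factor TFAM (-0.54) and opposed by POLG2 (0.57). Nuclear-encoded subunits of the respiratory chain and ATP synthase were at -0.10 with 52 of 79 lower, with CYC1 at -0.72 and NDUFV2 at 1.22 as the smallest p in each direction. The genes with RPL or RPS symbols, mostly proteins of the cytosolic ribosome, were at 0.10 with 24 of 85 lower. The smallest p in each direction were those of RPL7L1, a paralog that acts in ribosome biogenesis and is not a cytosolic ribosomal protein, at -0.33 and of RPL9 at 0.38. EdgeR called 0 genes in each of these lists with all 6 libraries. Without control 3 it called 3 of 26 assembly factors (RCC1L, DHX30 and MPV17L2) and 2 of 9 mitochondrial DNA genes (TFAM and TWNK). It also called 2 of 79 respiratory chain genes (CYC1 and UQCR11). All were lower in the control, against 4.04% of all genes tested in that setting. The medians moved with single libraries too. With a library left out, the range was -0.334 (without control 3) to -0.136 (without control 1) for assembly factors, -0.305 to -0.0737 (without knockdowns 3 and 2) for the mitochondrial DNA genes and -0.169 (without control 3) to -0.0383 (without knockdown 2) for the respiratory chain. Cytosolic ribosomal proteins ran from 0.0372 (without control 3, with 35 of 85 lower) to 0.149 (without control 2), and translation factors from -0.1 (without control 3) to 0.0269 (without knockdown 3), where the sign turned. The difference between the lists was not tested, since genes of one list are not replicates.

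**Figure D5:**
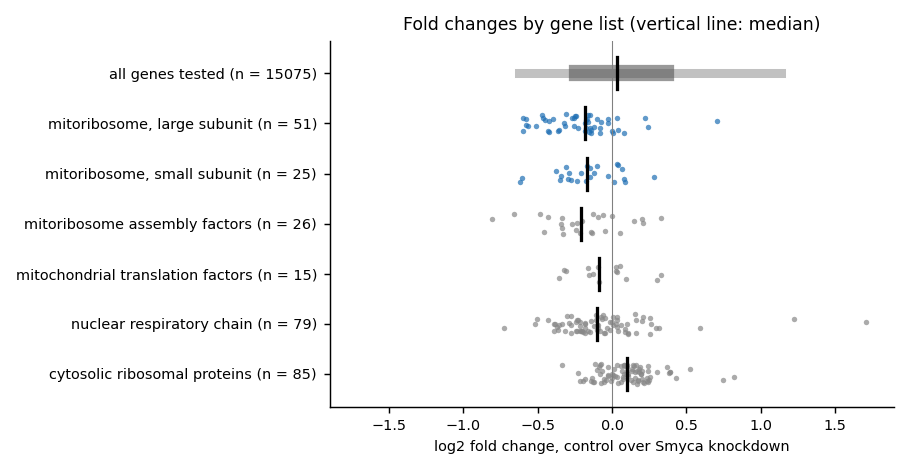
Log2 fold change, control over Smyca knockdown, of the genes of each list, with the median as a vertical line. The bar for all 15075 genes tested spans the 5th to the 95th percentile (light) and the quartiles (dark), and the mitoribosomal medians (-0.18 and -0.17) lie left of 0 while that of the cytosolic ribosomal proteins (0.10) lies right of it.

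Among 10 transcription factors, their partners and coactivators known to act on genes of mitochondrial proteins, 9 were lower in the control. The median was -0.165, and 0 were called. Of these 9, PPARGC1A (-0.01, standard error 0.78), MYC, MAX and GABPA lay within 1 standard error of 0. With a library left out the median ran from -0.248 (without knockdown 1) to -0.14 (without control 2, with 7 of 10 lower). NRF1 was at -0.26, GABPA, the DNA-binding part of NRF2, at -0.11, YY1 at -0.30 and MYC, whose targets the study turned to, at -0.05. The coactivator gene PPARGC1B had the smallest p, at -0.68 (adjusted p = 0.168 by edgeR), and GABPB1 was the 1 gene above 0, at 0.05.

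Sequences of the promoters are shown because the selection by name did not use them. Of the motifs printed below, the ETS and YY1 cores were more frequent in members than in tested genes, and the NRF1 palindrome was not. RefSeq promoters of GRCh38.p14, from 250 bases before to 50 bases after the start, matched 69 of 78 members, and short motifs were searched on both strands. The ETS core CCGGAAG, bound by GABPA among others, was in 29 of 69 member promoters (42.0%), against 18.9% of the 10964 promoters of tested genes. The YY1 core AAGATGGC was in 20 (29%), against 5.25%, and 15 of its 21 matches began at or after the start. The NRF1 palindrome, GCGC and again GCGC with any 2 bases between them, was in 9 (13.0%, against 15.6%), the E-box CACGTG of MYC and MAX in 6 (8.7%, against 10.1%), the GC box GGGCGG in 42 (60.9%, against 69.9%) and CCAATC, read by NF-Y, in 12 (17.4%, against 19.3%). Among all 27305 promoters the shares were 10.7%, 3.03%, 8.78%, 7.43%, 44.6% and 15.7% in the same order. A match of the letters is not a bound site, and 1 pair of matches of different motifs overlapped.

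The 150 bases before the start are printed on the strand of the gene for members of the ETS kind (MRPL20 at chr1:1407294-1407443, minus strand, and MRPL3 at chr3:131502972-131503121, minus strand) and of the NRF1 kind (MRPL57 at chr13:21176508-21176657 and MRPS11 at chr15:88467558-88467707, both plus strand), with each motif in capitals.
MRPL20: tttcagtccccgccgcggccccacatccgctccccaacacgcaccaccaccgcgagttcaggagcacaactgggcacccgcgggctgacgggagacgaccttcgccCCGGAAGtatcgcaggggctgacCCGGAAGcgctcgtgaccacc
MRPL3: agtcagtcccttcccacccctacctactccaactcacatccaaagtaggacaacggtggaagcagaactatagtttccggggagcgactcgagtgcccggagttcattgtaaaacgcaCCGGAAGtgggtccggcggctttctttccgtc
MRPL57: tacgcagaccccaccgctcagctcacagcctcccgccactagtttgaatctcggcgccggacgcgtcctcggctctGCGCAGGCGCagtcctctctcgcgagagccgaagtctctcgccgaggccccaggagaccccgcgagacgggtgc
MRPS11: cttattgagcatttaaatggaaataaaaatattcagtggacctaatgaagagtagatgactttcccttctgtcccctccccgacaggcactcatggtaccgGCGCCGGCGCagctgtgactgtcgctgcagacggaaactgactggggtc

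The YY1 core is shown in 30-base windows on the strand of the gene, for MRPS27 (chr5:72320206-72320235, minus strand), MRPL20 (chr1:1407260-1407289, minus strand) and MRPL36 (chr5:1799854-1799883, minus strand), where the last has it in reverse complement. The core, in capitals, begins at base 17 after the start in MRPS27, at base 16 in MRPL20 and 35 bases before the start in MRPL36.
MRPS27: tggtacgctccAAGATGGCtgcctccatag
MRPL20: ccgacccgggcAAGATGGCagcggcgctgc
MRPL36: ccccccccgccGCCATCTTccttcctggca

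MRPL20, with ETS and YY1 letters in 1 promoter like 8 members in all, was at 44.6, 50.2 and 68.9 normalized CPM in control cells and 62.7, 84.4 and 78.3 in the knockdown, or -0.46 on the log2 scale (standard error 0.20). Control 3 lay above knockdown 1. Of the 13 members with an unadjusted p under 0.05, 10 had a promoter in the table, 3 of them with the ETS core, 2 with the YY1 core, 2 with the E-box and 1 with the NRF1 palindrome.

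In all, 18 members start within 250 bases of a gene on the other strand, where a pair can share a promoter. For 15 of them the partner was tested and is not a member, and 12 of these 15 members were lower in the control (median -0.31), as were 9 of the 15 partners (median -0.08), with both lower in 8 pairs. MRPL49 and FAU, the gene of a cytosolic ribosomal protein, have starts 6 bases apart and log2 fold changes of -0.58 and 0.14. MRPL30 at -0.18 stands beside MITD1 at 0.49, and MRPL13 at -0.58 beside MTBP at -0.37. In 1 pair both genes are members, MRPL46 and MRPS11 with starts 63 bases apart, at -0.14 and -0.37.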

How the data were processed

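RNA was sequenced from 3 control and 3 Smyca shRNA #1 libraries of cells labelled MDA-MB231. The study's methods give rRNA depletion, a strand-specific kit, 150-base paired reads, TopHat (version 2.0.12 and hg38 in the submitters' processing notes) and counting by HTSeq. The HTSeq version, strand setting and annotation release are not given in the sources used here. The kit for RNA extraction differs between the labels and the methods.

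The deposited files hold raw read counts per Ensembl gene, and an FPKM value per gene that the authors normalized for length and depth. Counts were used for every test, and 0 columns of other samples were found. The FPKM column gave each gene's length and served for 1 alternative. For control 2 it follows other reads than the count column.

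Groups came from the labels. Symbols were taken from GENCODE release 44 and matched 57532 of 58302 IDs. R 4.3.3 with edgeR 4.0.16 was run with TMM scaling, filterByExpr, the quasi-likelihood test of control against knockdown, and Benjamini-Hochberg adjustment over 15075 genes. The code was tested on simulated data. Criteria were an adjusted p under 0.05 and a ratio from 1.5 upward or from 0.66 downward. DESeq2 1.42.0, other scalings and filters, a replicate block and each library left out were alternatives.

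Total counts were 14999307 to 16501085 per library, and standard errors cover the spread between libraries.

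Members named were the 12 with the smallest p in each direction, the 5 highest and the 5 lowest per length, the untested member, the stalk, the MRPS18 paralogs, MRPS30 and MRPS36, and members whose call changed under an alternative. MRPL16, MRPL30, MRPL36, MRPS11, MRPS21, MRPS25 and MRPS28 were named after their values were seen. Of related lists, the mitoribosomal genes of other symbol, the smallest p in each direction and MYC, NRF1, GABPA and YY1 were named. The members, lists and tests were chosen with earlier results of these data known.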

Additional observations from a re-analysis of the deposited data

How the results depend on the processing

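Across the alternatives the median of the members stayed below 0. With no composition factor it was nearest to 0, at -0.101 (0.106 over all genes), with 59 of 77 members lower in the control. The median of the members ran from -0.13 to -0.31 with each library left out in turn, and -0.31 came without control 3. The number of members called was 1 (MRPS27) with no filter on low counts and 1 by DESeq2, 13 at an unadjusted p under 0.05, 3 by the ratio alone, and 0 to 8 with a library left out. The 13 members lower at an unadjusted p under 0.05 became 7 with no composition factor, 8 when the FPKM-derived reads of control 2 replaced its counts, and 4 to 27 with a library left out. The 0 higher ones became 2 with no composition factor, 1 with those reads, and 0 to 1 with a library left out. Over all genes, the 4 called became 8 with no composition factor, 916 with no filter, 10 with the FPKM reads, 836 by DESeq2, 2893 at an unadjusted p under 0.05, 3193 by the ratio alone, 8 at an adjusted p under 0.10, and 0 to 1628 with a library left out, the last without control 3. With the repeat number as a replicate block, 0 of all genes and 0 members were called, the median of the members was -0.20 and 64 were lower in the control. Same-numbered libraries correlated at 0.06, 0.08 and -0.01 in their deviations from the group means, so the numbers were not taken as a pairing. Smyca passed an adjusted p of 0.05 with no filter (log2 fold change 1.49, adjusted p = 0.000646), by DESeq2 (1.51, adjusted p = 3.96e-05) and without control 3 (1.52, adjusted p = 0.0152). It ran from 1.33 to 1.81 with a library left out, and over the 13 alternatives its adjusted p ran from 3.96e-05 to 0.44 by edgeR or DESeq2. The cause of these shifts was not tested.

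Of 598 comparisons of 46 tested members named in the text, 11 in 9 members newly passed an adjusted p of 0.05 and 39 in 16 members changed sign, each of these 39 with no adjusted p under 0.05. With the FPKM reads of control 2 the values were -0.11 for MRPL10, 0.11 for MRPL12, -0.0379 for MRPL44, 0.223 for MRPS17, 0.0742 for MRPS18B, 0.131 for MRPS26 and -0.0419 for MRPS31. With no composition factor they were 0.0389 for MRPS18A and 0.0502 for MRPS18B, and with no filter -0.00555 for MRPS6 and -0.0257 for MRPS25. MRPS25 was also at -0.00325 with RLE size factors, -0.00307 by DESeq2 and -0.0933 with the replicate block. With a library left out, the range was -0.00437 to 0.19 for MRPL10, -0.40 to 0.0786 for MRPL12, -0.11 to 0.12 for MRPL44, -0.13 to 0.15 for MRPL55, -0.58 to 0.0607 for MRPS17, -0.11 to 0.11 for MRPS18A, -0.20 to 0.0806 for MRPS18B, -0.0405 to 0.22 for MRPS18C, -0.19 to 0.0194 for MRPS30, -0.00588 to 0.155 for MRPS31, -0.483 to 0.0483 for MRPL16, -0.461 to 0.0734 for MRPS21, -0.478 to 0.217 for MRPS25, -0.669 to 0.0514 for MRPS26, -0.0798 to 0.206 for MRPS6 and -0.00989 to 0.115 for MRPS9. The standard error was 0.36 for MRPL38 and MRPS17, which are low in counts, and 0.30 for MRPS26, which is not, against a median of 0.18.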

Other observations

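The FPKM column of control 2 did not follow its count column. In the other 5 libraries the FPKM of each gene followed the count within 1%, while in control 2 that held for 1.62% of genes and 3357 genes with a count of 0 had an FPKM above 0. Multiplied by gene length and depth, the column gave whole reads, within 0.05 reads, for all genes under 200 reads that had a length, with a sum of 16759253, while 996 genes with an FPKM above 0 had no length and were not checked. For 41 of 78 mitoribosomal genes these reads were more than 1.2 times the count. With them in place of the counts of control 2, the median log2 fold change of the members was -0.157, 60 of 77 were lower in the control and edgeR called 0.

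Pseudogenes of the mitoribosomal genes drew few reads. Of 79 pseudogene IDs, 63 had no count in any library, and 3 passed 10 counts in a library. MRPS31P5 had 21, 26 and 57 counts in the control and 15, 7 and 18 in the knockdown, MRPS31P4 had 5, 18 and 11 against 14, 10 and 7, and MRPS18AP1 had 10, 8 and 13 against 18, 5 and 7. Together the pseudogenes held between 0.0282% (knockdown 2) and 0.11% (control 3) of the members' counts.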
